A study of Homo sapiens with 6 samples.

Results

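The SERINC genes encode a family of 5 membrane proteins, and their mRNA levels were examined in OVCAR5 cells, a long-established line of human ovarian cancer, with and without METTL3 overexpression. The members were the gene rows whose identifiers carry the names SERINC1, SERINC2, SERINC3, SERINC4 and SERINC5, which are 5 of the 60605 genes in the count table. SERINC2 was chosen by its rise with METTL3 in these same libraries, so its difference between the groups is given as a description without a test. Its 4 paralogs were taken by name, and the difference between the groups was tested for those that passed the filter on low counts. Of the 5 members, 4 held counts and passed the filter on low counts, whereas SERINC4 was at 0 counts in all 6 libraries.

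Serine incorporator (SERINC) proteins cross the membrane many times and were named for a proposed part in bringing serine into membrane lipids, that is into phosphatidylserine and sphingolipids. SERINC3 and SERINC5 are best known as restriction factors that lower the infectivity of HIV particles and are counteracted by the viral protein Nef, and SERINC proteins have been described as scramblases, which let phospholipids pass from one leaflet of a membrane to the other. METTL3 is the catalytic subunit of the complex that writes N6-methyladenosine (m6A) on mRNA. m6A was not measured in the data used here.

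Libraries were made from polyadenylated RNA of cells transduced with lentivirus carrying METTL3 (3 libraries) or the empty vector PCDH (3 libraries), with puromycin selection of stable cells in both groups. One label calls the control cells parental, whereas the treatment protocol gives them the empty vector, and no drug other than puromycin is named for either group. Nothing in the labels says that the replicates came from separate transductions, so the p-values measure the spread between these libraries, which may be technical. Because these are bulk libraries of 1 cell line, fewer cells expressing a gene and less RNA per cell cannot be told apart.

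Total counts were between 96633925 and 125463386 per library. Levels are given as CPM, edgeR's per-million scaling of the counts by library totals adjusted with TMM factors. METTL3 checked the labels, at 152.4, 165.5 and 175.3 CPM in METTL3 replicates 1, 2 and 3 and 80.6, 68.6 and 71.6 CPM in vector replicates 1, 2 and 3, and the groups did not overlap. Replicate 1 of each group stood apart from the other libraries of its group. Over 14684 genes the root mean square difference in log2 CPM was 0.163 between METTL3 replicates 2 and 3 and 0.178 between vector replicates 2 and 3, but 0.406 to 0.427 between METTL3 replicate 1 and its group and 0.517 to 0.560 between vector replicate 1 and its group. Each difference between the groups was therefore also fitted on replicates 2 and 3 alone. Replicate 1 was thus left out because of its values, and the libraries that remained were the most alike of each group. Adjusted p-values on replicates 2 and 3 therefore leave out much of the spread between libraries and can be too small. Epithelial markers summed to 7279 to 8309 CPM in the METTL3 libraries and 5895 to 9199 CPM in the vector libraries with 7 of 7 detected, whereas the 4 leukocyte markers summed to at most 1.52 CPM, the 3 endothelial markers to at most 22.1 CPM and the 5 fibroblast markers to at most 20.1 CPM. Of these 12 non-epithelial markers, 3 leukocyte, 2 endothelial and 3 fibroblast markers were under 1 CPM in every library.

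The members lie on 5 chromosomes and differ enough in sequence to be counted apart. On GRCh38 with GENCODE release 44, SERINC1 (ENSG00000111897.7) is at chr6:122443351-122471807 on the minus strand, SERINC2 (ENSG00000168528.12) at chr1:31409565-31434680 on the plus strand, SERINC3 (ENSG00000132824.14) at chr20:44496221-44522085 on the minus strand, SERINC4 (ENSG00000184716.14) at chr15:43794162-43800220 on the minus strand and SERINC5 (ENSG00000164300.17) at chr5:80111651-80256048 on the minus strand. SERINC1, SERINC2 and SERINC3 were the most alike as proteins, with 61.9% of aligned residues identical between SERINC1 and SERINC3, 56.0% between SERINC1 and SERINC2 and 53.2% between SERINC2 and SERINC3. SERINC4 and SERINC5 shared 42.3% with each other and between 37.6% and 42.2% with the other 3 members. The 60 coding bases in which the paralogs matched SERINC2 most are shown to let the similarity of the transcripts be seen. Only stretches aligned without gaps and within an exon of SERINC2 were compared. They are in exon 9 of SERINC2 (chr1:31433121-31433180), exon 9 of SERINC1 (chr6:122446779-122446838) and of SERINC3 (chr20:44501078-44501137), and exon 11 of SERINC4 (chr15:43795393-43795452) and of SERINC5 (chr5:80146095-80146154). Each is written 5′ to 3′ on the strand of its gene, and capitals mark bases that differ from SERINC2.
SERINC2: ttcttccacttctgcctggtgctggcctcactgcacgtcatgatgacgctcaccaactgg
SERINC1: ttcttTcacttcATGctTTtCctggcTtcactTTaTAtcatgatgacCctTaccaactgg
SERINC3: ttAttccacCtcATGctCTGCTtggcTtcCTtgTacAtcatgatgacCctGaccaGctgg
SERINC4: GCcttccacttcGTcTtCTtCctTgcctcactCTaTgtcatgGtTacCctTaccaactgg
SERINC5: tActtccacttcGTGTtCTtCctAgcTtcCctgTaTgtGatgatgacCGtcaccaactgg
In this stretch 14 bases of SERINC1, 18 of SERINC3, 16 of SERINC4 and 16 of SERINC5 differed from SERINC2. Over whole transcripts, the longest run of bases shared exactly by any pair was 20 bases, between SERINC1 and SERINC3. The longest run that SERINC2 shared with a paralog was 17 bases, with SERINC3, and this run is printed because it bounds the sequence on which reads of both genes could match without a mismatch. It spans the junction of exons 3 and 4 in both genes (from chr1:31424869 to 31425341 across the intron in SERINC2, and from chr20:44511357 to 44512805 in SERINC3).
SERINC2 and SERINC3: aatgggttttggttctt

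SERINC2 was higher in every METTL3 library than in any vector library. Its level was 216.9, 241.7 and 245.7 CPM in METTL3 replicates 1, 2 and 3, from 24474, 29952 and 24790 counts. In vector replicates 1, 2 and 3 it was 145.6, 135.3 and 128.8 CPM, from 13806, 15286 and 14233 counts. The lowest METTL3 library was thus well above the highest vector library, and in both groups replicate 1 lay nearest to the other group. The means (± SD, n = 3) were 234.8 ± 15.6 CPM in the METTL3 group and 136.5 ± 8.44 CPM in the vector group, a ratio of 1.72. The fitted log2 fold change was 0.78 (standard error 0.113) on all 6 libraries and 0.88 on replicates 2 and 3. Between libraries of the same replicate number, the level with METTL3 was 1.49, 1.79 and 1.91 times that with the vector for numbers 1, 2 and 3. No p-value is given for SERINC2, since the same contrast chose it.

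**Figure D1:**
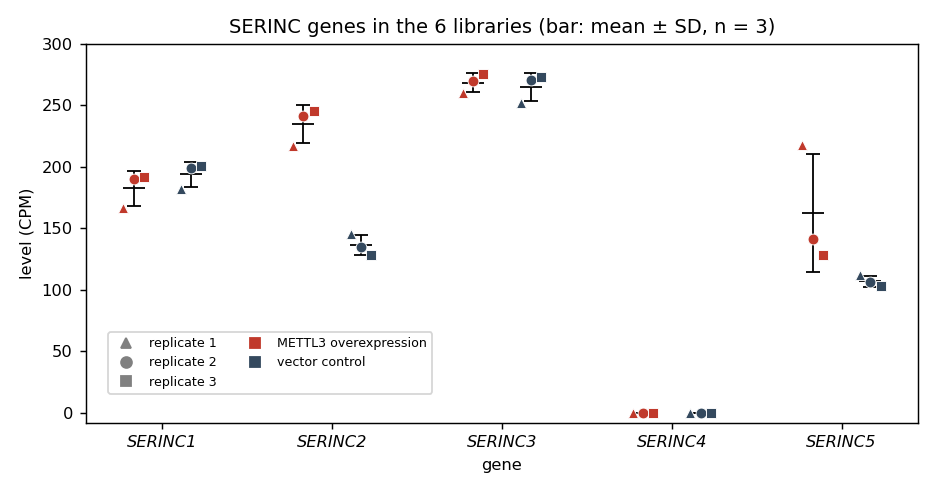
Level of each SERINC gene in CPM (vertical axis) in each of the 6 libraries. Red points are METTL3 libraries, blue points vector libraries, the shape gives the replicate number, and the horizontal bar and whiskers are the mean ± SD (n = 3). SERINC2 and SERINC5 were higher in all 3 METTL3 libraries, SERINC1 and SERINC3 overlapped between the groups, and SERINC4 was at 0.

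The paralogs SERINC1 and SERINC3 did not show this difference. SERINC1, the ubiquitously expressed member, was at 166.3, 190.4 and 191.6 CPM in METTL3 replicates 1, 2 and 3 and 182.4, 198.8 and 200.8 CPM in vector replicates 1, 2 and 3. The groups overlapped, and replicate 1 was the lowest library of each group. Its log2 fold change was −0.09 (standard error 0.114, 95% interval −0.35 to 0.17), with an adjusted p of 0.835 in edgeR's quasi-likelihood test. SERINC3, which like SERINC5 restricts HIV, was at 260.1, 270.1 and 275.4 CPM with METTL3, against 252.1, 270.6 and 273.1 CPM with the vector. All 6 of these values lay within a narrow range, and vector replicate 1 was the lowest. Its log2 fold change was 0.02 (standard error 0.107, 95% interval −0.23 to 0.26) with an edgeR adjusted p of 0.973. On replicates 2 and 3 the log2 fold changes were −0.07 for SERINC1 (edgeR adjusted p = 0.448) and 0.00 for SERINC3 (edgeR adjusted p = 0.983). The intervals on all 6 libraries leave room for a change of up to about the size of their bounds.

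SERINC5 was also higher in every METTL3 library than in any vector library, but the size of the difference rested on 1 library. It was at 217.8, 141.8 and 128.7 CPM in METTL3 replicates 1, 2 and 3 and 112.0, 106.5 and 103.0 CPM in vector replicates 1, 2 and 3. METTL3 replicate 1 was far above the other METTL3 libraries, so that the highest METTL3 library was 1.69 times the lowest, against 1.09 times within the vector group. The means were 162.8 ± 48.1 CPM and 107.2 ± 4.53 CPM (SD, n = 3), a ratio of 1.52. The log2 fold change was 0.60 (standard error 0.193, 95% interval 0.16 to 1.05), which did not pass the adjustment over all genes (edgeR, unadjusted p = 0.0135, adjusted p = 0.517). The exact permutation test, two-sided, gave p = 0.1, the smallest that 3 libraries against 3 allow. Without METTL3 replicate 1 the log2 fold change was 0.36 (edgeR adjusted p = 0.720). On replicates 2 and 3 of each group it was 0.37 (standard error 0.059) with an edgeR adjusted p of 0.00058. With no filter on low counts it was 0.62 with an edgeR adjusted p of 0.00594. In that fit the standard error was 0.1515 for SERINC5, 0.1511 for SERINC1 and 0.1516 for SERINC3. The p without the filter thus did not follow the larger spread of SERINC5 itself. With all 6 libraries the DESeq2 adjusted p was 0.158.

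Counts over all genes set the scale for these calls. On all 6 libraries edgeR called 0 of the 22038 genes tested (0%) at an adjusted p under 0.05, while 1830 genes (8.30%) had an unadjusted p under 0.05, and DESeq2 called 280 genes. METTL3 itself had a log2 fold change of 1.16 with an edgeR adjusted p of 0.072. Groups did not overlap with METTL3 higher in 8.47% of all genes and with METTL3 lower in 8.93%. Of the 3 paralogs tested, 1 (SERINC5) did not overlap with METTL3 higher, and 0 did so with METTL3 lower. On replicates 2 and 3 edgeR called 6.66% of 22046 genes higher and 8.59% lower, and among these 3 paralogs 1 (SERINC5) was called, as higher. These are counts of a few genes and do not set the family apart from other genes.

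**Figure D2:**
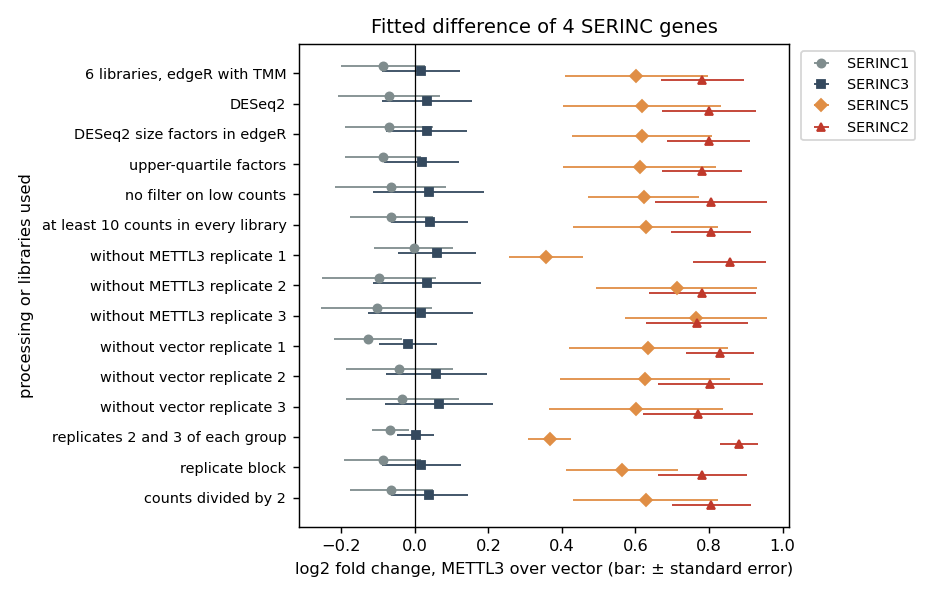
Fitted log2 fold change of METTL3 over vector (horizontal axis) with its standard error (bar) for SERINC1, SERINC3, SERINC5 and SERINC2, in each row for another processing setting or set of libraries. SERINC2 stayed between 0.77 and 0.88 and SERINC1 at or below 0, whereas SERINC5 moved from 0.60 to 0.36 without METTL3 replicate 1.

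SERINC4 was at 0 counts in all 6 libraries, and the annotation bears on how this 0 can be read. All of its 2976 exon bases (100%) also belong to exons of other genes, namely SERF2 (1910 bases, 64.2%) and HYPK (1649 bases, 55.4%) on the other strand and ENSG00000262560 (768 bases, 25.8%) on the same strand. Among protein-coding genes whose exon bases are all shared, some of them with the other strand only, 29 of 29 were at 0 in every library, and over either strand 325 of 332 were (97.9%). Among protein-coding genes with no shared exon base, 829 of 10499 were at 0 (7.90%). The count of 0 therefore sets no upper limit on SERINC4 RNA here. SERF2, a small protein that promotes protein aggregation, was at 144.0, 136.0 and 149.9 CPM with METTL3, against 208.3, 137.2 and 152.2 CPM with the vector, and HYPK, a chaperone bound to an amino-terminal acetyltransferase, was between 1.32 and 1.88 CPM in all 6 libraries. Neither passed the test, with edgeR adjusted p-values of 0.713 for SERF2 and 0.784 for HYPK. HYPK lies within the span of SERF2 on the same strand, and both share exon bases with SERINC4. Their counts may therefore leave out reads as well, and how many was not tested. For SERINC5, 261 exon bases (2.74%) are shared with the lncRNA ENSG00000251675 on the other strand, which was at most 0.195 CPM. SERINC1, SERINC2 and SERINC3 share 0 exon bases with other genes.

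Levels of different genes were compared per length, as CPM per kb of the union of each gene's exons. With the vector the order was the same in all 3 libraries, SERINC1, then SERINC3, SERINC2 and SERINC5, at means of 62.1 ± 3.23, 57.1 ± 2.48, 39.6 ± 2.45 and 11.2 ± 0.475 CPM per kb (SD, n = 3). With METTL3, SERINC2 was first in all 3 libraries at 68.0 ± 4.51 CPM per kb and SERINC5 last at 17.1 ± 5.04 CPM per kb. SERINC1 (58.5 ± 4.57 CPM per kb) and SERINC3 (57.8 ± 1.67 CPM per kb) lay between them, and these neighbours did not differ beyond their spread, with SERINC3 ahead in replicate 1 and SERINC1 ahead in replicates 2 and 3. SERINC2 was thus below SERINC1 and SERINC3 in every vector library and above both in every METTL3 library.

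Summed over the family, the level was 194.8, 203.9 and 205.2 CPM per kb in METTL3 replicates 1, 2 and 3 and 166.5, 172.2 and 171.1 CPM per kb in vector replicates 1, 2 and 3. Without SERINC2 the sum was 132.0, 133.9 and 134.1 CPM per kb with METTL3 and 124.3, 133.0 and 133.8 CPM per kb with the vector, and the groups overlapped. With the union of the exons as length, the separation of the full sum thus came from the gene that was chosen for it. SERINC2 made up 32.3%, 34.3% and 34.7% of the sum with METTL3 and 25.3%, 22.8% and 21.8% with the vector. SERINC5 made up 11.7%, 7.29% and 6.58% with METTL3 and 7.05%, 6.49% and 6.31% with the vector, so its share was raised mainly in METTL3 replicate 1. SERINC4 is missing from these sums. With the longest transcript of each gene as its length, SERINC2 took 36.6% of the sum with METTL3 and 25.9% with the vector (means, n = 3) and stayed above SERINC1 and SERINC3 with METTL3 and below both with the vector. By that length the sum without SERINC2 was 146.2, 144.4 and 143.9 CPM per kb in METTL3 replicates 1, 2 and 3. In vector replicates 1, 2 and 3 it was 133.1, 141.7 and 142.4 CPM per kb, so the groups did not overlap there.

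**Figure D3:**
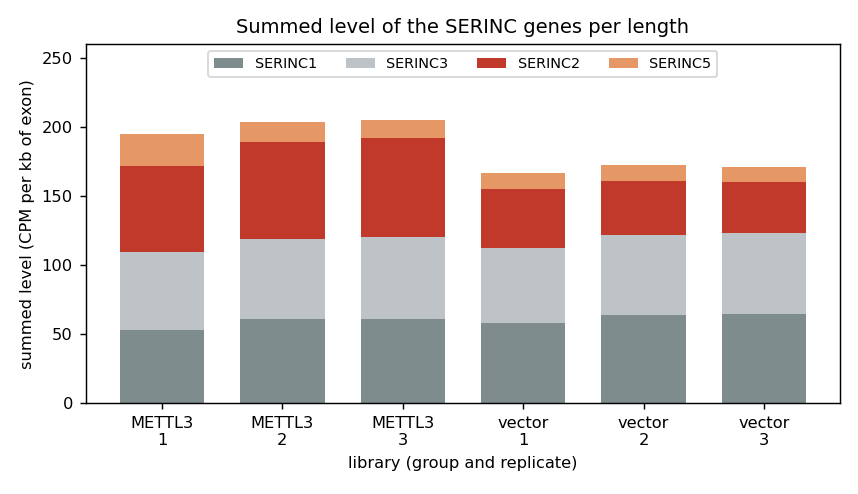
Summed level of the SERINC genes in CPM per kb of exon (vertical axis) in each of the 6 libraries, with each colour the part of 1 gene. The red SERINC2 part was between 62.9 and 71.2 in the METTL3 libraries and between 37.3 and 42.2 in the vector libraries, while the grey SERINC1 and SERINC3 parts were alike in all of them.

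Ratios of counts within a library do not depend on the scaling of the library. The ratio of SERINC2 to SERINC3 counts was 0.834, 0.895 and 0.892 in METTL3 replicates 1, 2 and 3 and 0.578, 0.4998 and 0.472 in vector replicates 1, 2 and 3. The ratio of SERINC1 to SERINC3 counts, which involves no gene chosen by its values, was 0.639, 0.705 and 0.696 with METTL3 and 0.724, 0.734 and 0.735 with the vector. The first ratio therefore moved by a large step between the groups, and the second was slightly lower in all 3 METTL3 libraries. SERINC3 to SERINC5 gave 1.19, 1.90 and 2.14 with METTL3 and 2.25, 2.54 and 2.65 with the vector, with METTL3 replicate 1 again the farthest out.

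Among 14683 other genes with a mean of at least 1 CPM, the gene whose log2 CPM was most like that of SERINC2 over the 6 libraries was METTL3 (Pearson r = 0.995). It was followed by SUSD1 (r = 0.991), a sushi domain protein, MCM5 (r = 0.991), a subunit of the replicative helicase, MLPH (r = 0.989), which links Rab27a to myosin Va, and MTSS1 (r = 0.988), a membrane-bending actin regulator. All 4 varied less than SERINC2, with log2 fold changes of 0.39 for SUSD1, 0.27 for MCM5, 0.22 for MLPH and 0.41 for MTSS1. MCM5, for example, was at 260.1, 273.4 and 265.1 CPM with METTL3, against 222.7, 222.0 and 217.5 CPM with the vector. Within the family the likeness to SERINC2 was far lower, at r = 0.676 for SERINC5 (rank 1279), 0.172 for SERINC3 (rank 5306) and −0.43 for SERINC1 (rank 11151). These correlations rest on 6 libraries in 2 groups and mostly restate the difference between the groups. SERINC2 was chosen for its rise with METTL3 in these same libraries, so a high rank of METTL3 follows from that choice.

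The nearest tested protein-coding genes on either side were read beside each member. Next to SERINC2, TINAGL1, a secreted matrix protein gene 141805 bases away, was at 239.3, 256.9 and 272.4 CPM with METTL3, against 195.6, 210.9 and 214.5 CPM with the vector. Its groups did not overlap, with a log2 fold change of 0.31 and an edgeR adjusted p of 0.562 (0.31 with an edgeR adjusted p of 0.000868 on replicates 2 and 3). On the other side FABP3, a fatty acid binding protein gene 32715 bases away, stayed under 1 CPM in all 6 libraries, with a log2 fold change of 0.18. SERINC1 lies 110 bases from PKIB on the other strand, which encodes an inhibitor of protein kinase A. PKIB was at 6.97, 6.38 and 7.11 CPM with METTL3, against 10.4, 11.0 and 11.3 CPM with the vector, lower in every METTL3 library. Its log2 fold change was −0.68, with an adjusted p of 0.341 in edgeR and 0.00103 in DESeq2 on all 6 libraries and 8.85e-05 in edgeR on replicates 2 and 3. SERINC3 has PKIG, a related inhibitor gene, 9700 bases away, with a log2 fold change of −0.49 (edgeR adjusted p = 0.628) and of −0.45 (edgeR adjusted p = 0.000253) on replicates 2 and 3, but of −0.26 without METTL3 replicate 1. The other neighbours had edgeR adjusted p-values of at least 0.635 on all 6 libraries, with log2 fold changes of −0.22 for HSF2 beside SERINC1, −0.02 for TTPAL beside SERINC3, −0.11 for ELL3 and −0.28 for MFAP1 beside SERINC4, and −0.43 for THBS4 and 0.08 for ZFYVE16 beside SERINC5. MFAP1 was at −0.11 without vector replicate 1, and THBS4 at −0.24 without METTL3 replicate 1.

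The transcripts were also searched for GGACT, one of the letter strings whose adenosine the METTL3 complex can methylate, on the sense strand of the MANE Select transcript. SERINC2 held 1 site in 1900 bases, SERINC1 held 1 in 3125, SERINC3 held 6 in 4396, SERINC4 held 1 in 2629 and SERINC5 held 4 in 6448. Among 19061 transcripts, 88.5% held at least 1 site and the median was 0.924 sites per kb. SERINC2, at 0.526 per kb, was at the 24.7th percentile, and SERINC3, at 1.36 per kb, was at the 73.6th. With the shorter string GGAC, which 99.0% of these transcripts held at a median of 3.74 per kb, the order was another one, with SERINC2 the densest at 4.21 per kb (58.0th percentile), followed by SERINC4 at 4.18, SERINC3 at 3.18, SERINC5 at 2.33 and SERINC1 at 1.60 per kb. The only sites of SERINC2 and SERINC1 are shown with the string in capitals, the first after the stop codon in exon 10 (chr1:31434607-31434631, plus strand) and the second in the coding part of exon 8 (chr6:122447144-122447168, minus strand). A match is a string of letters and not a measured m6A site.
SERINC2: cccacttcctGGACTtcgtgcctta
SERINC1: aggaattataGGACTaattctcttt

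SERINC2 and SERINC5, the members that were higher in all 3 METTL3 libraries, are shown with the 250 bases before a RefSeq transcription start (GRCh38.p14). For SERINC2, which has 4 such starts in the table, this is the start of its MANE Select transcript (chr1:31412963-31413212, plus strand), and SERINC5 has 1 start (chr5:80256049-80256298, minus strand). Capitals mark a GC box, searched as GGGCGG, or a CCAAT box, searched by those letters of its name, each on either strand.
SERINC2: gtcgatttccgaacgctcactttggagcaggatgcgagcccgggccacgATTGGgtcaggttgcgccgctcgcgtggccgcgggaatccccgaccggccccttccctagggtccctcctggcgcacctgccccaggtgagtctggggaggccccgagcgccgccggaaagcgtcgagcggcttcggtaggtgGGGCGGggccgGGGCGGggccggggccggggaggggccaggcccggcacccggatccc
SERINC5: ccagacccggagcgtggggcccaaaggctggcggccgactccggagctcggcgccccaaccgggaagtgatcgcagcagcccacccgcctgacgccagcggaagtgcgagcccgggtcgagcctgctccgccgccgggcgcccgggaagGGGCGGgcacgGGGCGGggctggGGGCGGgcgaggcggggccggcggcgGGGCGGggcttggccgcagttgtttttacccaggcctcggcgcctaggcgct
G and C made up 75.2% of the stretch for SERINC2 and 78.4% for SERINC5. Before the starts of SERINC1, SERINC3 and SERINC4 they made up 54.0%, 53.2% and 50.4%. The share over all promoters was not computed, and a tie to the difference between the groups was not tested. SERINC2 held 2 GC boxes and 1 CCAAT box, and SERINC5 held 4 GC boxes and 0 CCAAT boxes. Before the other SERINC2 starts, numbered 1, 2 and 4, G and C made up 46.0%, 49.6% and 73.6%. Those stretches held 0, 0 and 1 GC boxes and 1, 1 and 0 CCAAT boxes. Which start these cells use was not tested. SERINC1 held 1 GC box, SERINC3 held 1 GC box and 1 CCAAT box, and SERINC4 held 1 CCAAT box, while a TATA box (TATAAA) or an E box, searched as CACGTG, was found in 0 of these stretches. Over 35116 promoters of the same length, 42.6% held a GC box, 32.0% a CCAAT box, 10.7% a TATA box and 6.34% an E box.

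Genes of the serine and membrane lipid pathways around the SERINC proteins were read from 5 lists of 77 genes, of which 72 passed the filter on low counts. On all 6 libraries edgeR called 0 of the 72, and 11 had an unadjusted p under 0.05 (15.3%, against 8.30% of all genes). Groups did not overlap in 13 members with METTL3 higher (18.1%, against 8.47% of all genes) and in 7 with METTL3 lower (9.72%, against 8.93%). Their log2 fold changes were positive for 35 and negative for 37, with a median of −0.0047 beside −0.018 for all genes. On replicates 2 and 3 edgeR called 6 members higher (8.33%, against 6.66% of all genes) and 11 lower (15.3%, against 8.59%).

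The serine synthesis list, which also holds SRR and SDS, enzymes that act on serine, gave no call on all 6 libraries. Of its 7 genes 5 had a positive log2 fold change (list median 0.12), and SRR (−0.22) and SDS (−0.0023) were negative. On replicates 2 and 3 the list median was −0.015. PHGDH, the first enzyme of the pathway, was at 176.5, 92.4 and 83.2 CPM with METTL3, against 76.2, 114.6 and 109.7 CPM with the vector. Replicate 1 thus lay on the opposite side from replicates 2 and 3, on which PHGDH had a log2 fold change of −0.35 (edgeR adjusted p = 0.000972). On all 6 libraries its log2 fold change had the opposite sign, at 0.23 (edgeR adjusted p = 0.825). The log2 fold changes on all 6 libraries were 0.26 for PSAT1, the aminotransferase that follows, 0.10 for PSPH, the phosphatase of the last step, and 0.12 for SHMT2, which converts serine to glycine in mitochondria. Without METTL3 replicate 1 they were 0.09 for PSAT1 and 0.04 for SHMT2, and on replicates 2 and 3 PSAT1 was at 0.03.

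Of 9 serine transporters tested, 2 did not overlap with METTL3 higher and 2 with METTL3 lower (list median 0.02). SLC38A4, an amino acid transporter, was at 3.00, 3.09 and 2.93 CPM with METTL3, against 6.66, 5.04 and 5.80 CPM with the vector, with a log2 fold change of −0.96. Its adjusted p was 0.303 in edgeR and 3.15e-05 in DESeq2 on all 6 libraries, and 0.000305 in edgeR on replicates 2 and 3. SLC38A2, the far more abundant transporter of small neutral amino acids, was at 347.4, 324.0 and 304.3 CPM with METTL3, against 206.9, 281.3 and 283.1 CPM with the vector (log2 fold change 0.34, edgeR adjusted p = 0.603). The log2 fold change of SLC38A2 was 0.20 without vector replicate 1 and 0.15 on replicates 2 and 3 (edgeR adjusted p = 0.0701).

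The phosphatidylserine metabolism list, which also holds PLAAT1, had 2 of 6 members that did not overlap with METTL3 higher and 1 with METTL3 lower (list median −0.01). PTDSS1, a phosphatidylserine synthase, was at 154.8, 211.5 and 211.4 CPM with METTL3, against 216.6, 225.9 and 224.6 CPM with the vector (log2 fold change −0.21, edgeR adjusted p = 0.681, and −0.05 without METTL3 replicate 1), and PTDSS2, the other synthase, was at −0.01. PISD, which turns phosphatidylserine into phosphatidylethanolamine, had a log2 fold change of 0.27 on all 6 libraries (edgeR adjusted p = 0.571) and 0.27 on replicates 2 and 3 (edgeR adjusted p = 0.00663). PLAAT1, a phospholipase and acyltransferase, had a log2 fold change of −0.90 on all 6 libraries (edgeR adjusted p = 0.587) and −1.003 on replicates 2 and 3 (edgeR adjusted p = 0.000488), but −0.56 without vector replicate 3.

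Sphingolipid synthesis, which starts from serine, had 3 of 23 members that did not overlap with METTL3 higher and 3 with METTL3 lower (list median −0.05). SPTLC2, a catalytic subunit of serine palmitoyltransferase, was at 268.9, 233.5 and 216.2 CPM with METTL3, against 199.8, 189.6 and 184.3 CPM with the vector. Its log2 fold change was 0.32 (edgeR adjusted p = 0.564), and 0.26 on replicates 2 and 3 (edgeR adjusted p = 0.00431), while that of its partner SPTLC1 was −0.08 (edgeR adjusted p = 0.891). CERS4, a ceramide synthase, was at 4.73, 4.20 and 4.83 CPM with METTL3, against 6.33, 8.56 and 7.95 CPM with the vector. Its log2 fold change was −0.73, with an adjusted p of 0.395 in edgeR and 0.0175 in DESeq2 on all 6 libraries and 6.8e-05 in edgeR on replicates 2 and 3. SGMS1, a sphingomyelin synthase, had a log2 fold change of 0.12 (edgeR adjusted p = 0.746).

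Scramblases and flippases, which move lipids between the leaflets of a membrane, had 4 of 27 members that did not overlap with METTL3 higher and 1 with METTL3 lower (list median 0.04). TMEM30B, an accessory subunit of P4-ATPase flippases, was at 172.4, 122.9 and 120.5 CPM with METTL3, against 83.8, 77.6 and 75.9 CPM with the vector. Its log2 fold change was 0.81, close in size to that of SERINC2. Its adjusted p was 0.340 in edgeR and 0.00149 in DESeq2 on all 6 libraries and 1.24e-06 in edgeR on replicates 2 and 3. As for SERINC5, METTL3 replicate 1 was its highest library by a wide margin. TMEM30A, its more abundant paralog, had a log2 fold change of −0.28 on all 6 libraries (edgeR adjusted p = 0.637) and −0.34 on replicates 2 and 3 (edgeR adjusted p = 0.000299), but −0.18 without vector replicate 3. The phosphatidylserine scramblases ANO6 and XKR8 had log2 fold changes of 0.15 (edgeR adjusted p = 0.790) and −0.04 (edgeR adjusted p = 0.954), and ANO3, at under 2 CPM in all libraries, had 0.58 (edgeR adjusted p = 0.593), and 0.38 on replicates 2 and 3.

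**Figure D4:**
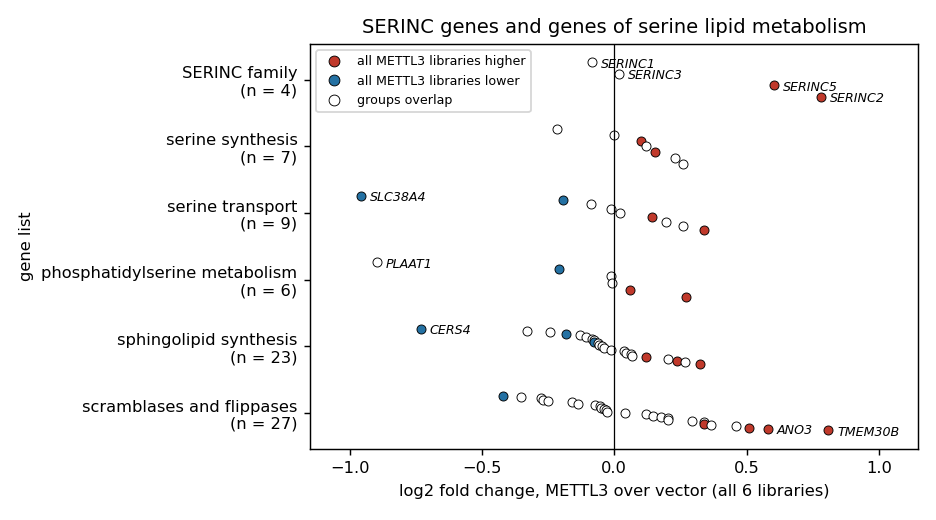
Log2 fold change of METTL3 over vector on all 6 libraries (horizontal axis) for the 4 SERINC genes that passed the filter on low counts and for the tested genes of 5 lists (rows, with the number of genes). Red and blue points are genes whose 3 METTL3 libraries were all above or all below the vector libraries, and white points are genes whose groups overlapped. TMEM30B at 0.81 lay as far to the right as SERINC2 at 0.78, and SLC38A4 at −0.96 and PLAAT1 at −0.90 lay farthest to the left.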

How the data were processed

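The members and the gene lists were chosen with earlier results of these data known. Per the labels and the study's methods, the authors aligned reads to hg38 with hisat2 and counted them per gene with Subread (versions not given in the sources used here), and they deposited raw counts without normalization for 60649 rows. The labels name a stranded TruSeq kit with paired-end reads, whereas the methods name an NEBNext kit with single-end reads, and how strand and reads over several genes were handled is not given in the sources used here. Counts from 1 to 20 were even in 67.6% to 70.5% of cases, so counts divided by 2 were also tested. The 44 second copies of pseudoautosomal genes, all at 0, were left out. GENCODE release 44 named 60463 of the remaining 60605 rows.

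In R 4.3.3, the 22038 genes passing filterByExpr of edgeR 4.0.16 were scaled by TMM and tested on all 6 libraries with glmQLFit (robust) and glmQLFTest, Benjamini-Hochberg adjustment and a threshold of 0.05. CPM and fold changes come from these factors, log2 CPM with a prior count of 2. The standard error is the absolute log2 fold change divided by the root of the F statistic. SERINC genes that held counts had at least 10625 in every library, so counting error was small beside the spread between libraries. Proteins were translated from GENCODE coding sequences, in place of the RefSeq proteins first planned, and aligned globally with Biopython 1.88. Same-numbered libraries deviated together from their group means (correlations 0.33, 0.12 and 0.17 for numbers 1, 2 and 3, each over the 0.1 required). Neither the main fit nor the exact permutation test used this pairing, and an alternative fit took the replicate number as a block. The labels do not state this pairing, and 2 pairs with different numbers also passed (0.21 and 0.13). Alternatives were DESeq2 1.42.0, its size factors in edgeR, upper-quartile factors, a minimum of 10 counts per library, no filter, each library left out, replicates 2 and 3 alone, the replicate block and counts divided by 2. Genes named are the SERINC genes, METTL3, neighbours and overlapping genes, 12 preset pathway genes, the 2 largest log2 fold changes of each list with a mean of at least 1 CPM, and the 5 genes most like SERINC2. The statistical functions were tested on simulated data.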

Additional observations from a re-analysis of the deposited data

How the results depend on the processing

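Leaving out each library in turn gave log2 fold changes of −0.13 to −0.003 for SERINC1, 0.77 to 0.86 for SERINC2, −0.018 to 0.065 for SERINC3, 0.36 to 0.76 for SERINC5 and 1.13 to 1.23 for METTL3. SERINC5 passed the threshold with no filter on low counts (0.62) and on replicates 2 and 3 of each group (0.37). On those replicates SERINC2 was at 0.88 and METTL3 at 1.28. Both passes came from fits that did not use the full spread of SERINC5. With no filter its standard error was almost that of SERINC1 and SERINC3, and the other fit left out replicate 1. The number of genes called, 0 in edgeR, was 280 with DESeq2, 560 with no filter, 3362 on replicates 2 and 3, and 0 to 367 with 1 library left out, the 367 without vector replicate 1. With the replicate number as a block, SERINC5 was at 0.56 (edgeR adjusted p = 0.291), SERINC1 at −0.09 and SERINC3 at 0.02, and the pairing changed no call. List members called were, for serine synthesis, 1 on replicates 2 and 3, for serine transport 1 with DESeq2, no filter, replicates 2 and 3 or without vector replicate 1, for phosphatidylserine metabolism 1 with no filter and 2 on replicates 2 and 3, for sphingolipid synthesis 1 with DESeq2 or without vector replicate 1 and 5 on replicates 2 and 3, and for scramblases and flippases 1 with DESeq2, 2 with no filter and 8 on replicates 2 and 3. With other libraries left out these were 0. The totals over all genes under the same settings are those given above. Shares per list were not compared with them, so these counts are no result about the lists. The share of SERINC2 moved to 36.6% and 25.9% with the longest transcript as length. With that length the sum without SERINC2 no longer overlapped between the groups. Directions turned for the following values. PHGDH ranged from −0.17 (without METTL3 replicate 1) to 0.44 with 1 library left out and was at −0.35 on replicates 2 and 3, on which SHMT2 was at −0.015, SPTLC1 at 0.13, ANO6 at −0.0815 and ELL3 at 0.20. Without vector replicate 1, SERINC3 was at −0.018, SPTLC1 at 0.10 and ELL3 at 0.20. Without METTL3 replicate 1, PTDSS2 was at 0.07, XKR8 at 0.06 and TTPAL at 0.04. Without vector replicate 2 these 3 were at 0.09, 0.03 and 0.10, and without vector replicate 3 at 0.10, 0.061 and 0.06. The lowest values with 1 library left out were −0.15 for XKR8 and −0.34 for ELL3. PTDSS2 was also at 0.0032 with no filter, 0.0067 with at least 10 counts in every library, 0.0043 with the block and 0.0066 with counts divided by 2. Of the other values for single genes named, 443 kept their direction and side of the threshold, and 26 passed it under an alternative only. The cause of these shifts was not tested. Depth did not limit the SERINC genes that held counts, and the spread between libraries, with replicate 1 apart, set the precision.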

Other observations

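Other genes had a pattern over the 6 libraries like that of SERINC5. Described here, after their values were seen, are 3 of the 5 most alike. The others, TCF12-DT (r = 0.998) and CAPN8 (r = 0.997), are not described. SLCO3A1, an organic anion transporter gene, had r = 0.999 with SERINC5 in log2 CPM and was at 135.1, 102.6 and 97.3 CPM in METTL3 replicates 1, 2 and 3 and 88.2, 83.7 and 82.8 CPM in vector replicates 1, 2 and 3. DAPK1, a death-associated kinase gene, had r = 0.998 and was at 92.2, 66.0 and 61.0 CPM with METTL3 and 53.1, 49.9 and 48.7 CPM with the vector. PIK3AP1, an adaptor of phosphoinositide 3-kinase, had r = 0.997 and was at 85.2, 49.6 and 45.2 CPM with METTL3 and 34.6, 34.0 and 31.8 CPM with the vector. In all 3, METTL3 replicate 1 was the highest library and every METTL3 library was above every vector library, as for SERINC5. This order follows from the likeness by which they were picked, and the correlations rest on 6 libraries. METTL3 was at r = 0.706 with SERINC5 (rank 2010 of 14683 genes) and SERINC1 at −0.87.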
